A study of Mus musculus with 14 samples.

Results

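Mouse T-cell acute lymphoblastic leukaemias (T-ALL) are labelled in the series as dependent on, evolving from or independent of the oncogene Lmo2, and the last 2 of these classes are set against each other here in mice given doxycycline (Dox). The comparison takes the 3 independent and the 3 evolving tumours from mice fed Dox at 600 mg/kg, which are 6 of the 14 libraries of the series. Values of single tumours are given throughout in 1 order: the evolving ones as VTL-153, VTL-25, VTL-21, then the independent ones as VTL-44, VTL-33, VTL-81. All 6 were chosen by their labels alone. Each tumour is labelled as a separate leukaemia of the Lmo2-driven VTL model, with 1 library with Dox and 1 without. The leukaemias arose from thymocytes transplanted into irradiated C57BL/6-Ly5.1;FVB F1 mice, were frozen, and were passaged into C57BL/6-Rag1-/- mice, from whose spleens donor cells positive for both CD45.1 and CD45.2 were sorted. The promoter that drives the Lmo2 transgene, the age and the sex of the mice are not given in the sources used here. One library stands for each tumour and condition, so the spread below is between tumours and not between mice carrying the same tumour.

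Lmo2 is a cofactor that joins DNA-binding proteins such as Tal1, Lyl1 and Gata factors in a complex that keeps blood progenitors immature, and its activation in thymocytes is a known cause of T-ALL. Ikaros, the product of Ikzf1, is a zinc finger repressor and activator that drives lymphoid differentiation and is lost or mutated in many mouse T-ALLs. As thymocytes mature they pass through a CD4 and CD8 double-positive stage, in which the Rag1 and Rag2 recombinase joins the T cell receptor segments, and this stage is a common point of arrest in T-ALL.

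Counts over the listed genes summed to 18214415 to 24048281 per library. Levels are CPM, the count of a gene scaled to a common library size (TMM), and differences are log2 fold changes, independent minus evolving, with an approximate standard error (SE). The summed T cell receptor and identity genes lay between 4158 and 6397 CPM in the 6 libraries with Dox. Several libraries stood apart. VTL-25 with Dox used another T cell receptor than VTL-25 without Dox: Trbv5 held 99.6% of its beta variable segment counts, against 78.7% for Trbv24 in its partner. Whether both VTL-25 libraries come from the same leukaemia was not tested, and every change of VTL-25 with Dox given below rests on the label alone. The other 5 tumours kept their leading beta segment, which was Trbv24 in VTL-153, VTL-21 and VTL-33, Trbv19 in VTL-44 and Trbv2 in VTL-81. Trbv24 led in every evolving library without Dox and in VTL-33, so keeping it does not identify a tumour. In VTL-21 the second segment was Trbv13-1 without Dox (13.9%) and Trbv13-2 with Dox (1.70%). VTL-21 held 8133 CPM of summed B cell markers, against 136 to 1317 CPM in the other 5. Only 9 of the 18 listed B cell markers were in the data, and in VTL-21 the immunoglobulin gene Ighm made up most of the sum. VTL-44 and VTL-81 held 1477 and 3489 CPM of summed myeloid markers, against 23.2 to 291 CPM in the other 4. Xist was 1977 to 2699 CPM in VTL-153, VTL-25, VTL-21 and VTL-44 but 11.2 in VTL-33 and 47.1 in VTL-81, and the Y-linked Ddx3y was 145 CPM in VTL-81 and at most 3.99 elsewhere. Low Xist and high Ddx3y thus occurred in the independent class alone, in 2 and 1 of its tumours.

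Between the 2 classes with Dox, 0 of 12093 genes passed the test (0%; edgeR, adjusted p below 0.05), and 573 had an unadjusted p below 0.05. The lowest adjusted p was 0.0948, for Rag1. DESeq2 called 94 genes (0.777%), 61 higher and 33 lower in the independent tumours, and limma voom called 1, again Rag1. Among the 54 genes named by rule, DESeq2 called 18, voom called Rag1, and edgeR without VTL-21 called Bcas1, and no other alternative gave any of them an adjusted p below 0.05. Without VTL-25, edgeR called 0 genes. In 578 genes (4.78%) the lowest independent tumour lay above the highest evolving tumour, and in 588 (4.86%) the highest independent tumour lay below the lowest evolving tumour. These shares are the background for every count below of genes whose classes did not overlap. No gene was at 10 CPM or more in all 3 tumours of one class and below 1 CPM in all 3 of the other. In the same tumours without Dox, 32 of 12167 genes passed (0.263%), the classes did not overlap in 23.5% of the genes, and 17 genes met the same on and off limits as evolving only and 4 as independent only.

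The 6 libraries did not sort into their classes by likeness. Over the 1000 most variable genes, Pearson correlations of log2 CPM between tumours with Dox were 0.40 to 0.56 within the evolving class, 0.41 to 0.60 within the independent class and 0.26 to 0.56 between classes. The closest pair across classes was VTL-21 and VTL-44, at 0.56, with 20 genes set apart (20 CPM or more against below 0.5 CPM). The farthest was VTL-153 and VTL-81, at 0.26, with 134 such genes. Each independent tumour resembled its own library without Dox at 0.86 to 0.93, and each evolving tumour at 0.27 to 0.44. The class comparison with Dox thus sets libraries close to their untreated partners against libraries far from theirs. Each evolving library with Dox was closer to an untreated independent library than to its own partner. These were VTL-33 for VTL-153 (0.59) and VTL-25 (0.51), and VTL-44 for VTL-21 (0.59). Without Dox, VTL-153 and VTL-25 stood at 0.91, with 3 genes set apart, and the other evolving pairs at 0.58 and 0.65. Whether VTL-153 and VTL-25 are separate leukaemias was not tested, and the comparison without Dox counts them as separate. In bulk RNA, a lower level can mean fewer cells of a type or less RNA per cell, and these cannot be told apart here.

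The clearest difference was in the recombinase. Rag1 (ENSMUSG00000061311, chromosome 2, 101638282 to 101649501 on mm10), which together with Rag2 cuts receptor DNA, stood at 937, 744 and 842 CPM in the evolving tumours and at 140, 167 and 193 CPM in the independent tumours. All 3 evolving tumours were high, all 3 independent tumours were low, and the spread within each class was small beside the gap. The difference was -2.35 (SE 0.19) on the log2 scale, with an adjusted p of 0.0948 by edgeR and 4.3e-27 by DESeq2. It lay between -2.45 and -2.22 under every alternative run, -2.43 without VTL-25, with adjusted p from 4.3e-27 to 0.71. Rag2 (ENSMUSG00000032864, chromosome 2, 101624718 to 101632529), the partner subunit encoded beside Rag1, stood at 34.4, 26.7 and 38.9 CPM in the evolving tumours and at 6.53, 11.4 and 6.91 CPM in the independent ones. The classes again did not overlap, with a log2 difference of -2.02 (SE 0.32, edgeR adjusted p 0.939, DESeq2 adjusted p 0.000123). The recipients lacked Rag1, and the cells were sorted as donor cells.

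Without Dox the same tumours did not divide this way. Rag1 stood at 539, 367 and 189 CPM in the evolving tumours and 528, 937 and 162 CPM in the independent tumours, and the classes overlapped. Rag2 was 13.0, 10.2 and 9.39 CPM against 22.5, 77.1 and 4.14 CPM. Rag1 was thus higher with than without Dox in all 3 evolving tumours, lower in VTL-44 and VTL-33, and slightly higher in VTL-81. The 250 bases upstream of the 2 gene starts are shown because both genes moved together in the 6 libraries. They are RefSeq sequences of GRCm38.p6, written 5′ to 3′ on the strand of the gene, with capitals marking TGGGAA, a core bound by Ikaros proteins, and CANNTG, the E-box bound by E proteins, on either strand. The Rag1 window is chr2:101649533-101649782 on the minus strand and the Rag2 window is chr2:101624462-101624711 on the plus strand.
Rag1: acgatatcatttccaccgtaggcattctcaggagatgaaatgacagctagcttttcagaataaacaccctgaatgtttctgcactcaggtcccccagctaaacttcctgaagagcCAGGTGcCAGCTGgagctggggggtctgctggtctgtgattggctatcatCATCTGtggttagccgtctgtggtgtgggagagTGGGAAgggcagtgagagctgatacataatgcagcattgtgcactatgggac
Rag2: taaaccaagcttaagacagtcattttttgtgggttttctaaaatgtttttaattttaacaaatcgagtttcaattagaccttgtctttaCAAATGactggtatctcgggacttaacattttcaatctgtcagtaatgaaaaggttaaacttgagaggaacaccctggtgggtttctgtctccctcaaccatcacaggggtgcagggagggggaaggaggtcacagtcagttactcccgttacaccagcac
The Rag1 window held 1 TGGGAA and 3 CANNTG matches, and the Rag2 window held 0 and 1. Of 32851 RefSeq promoter windows of the same length, 21.6% held TGGGAA and 66.2% held CANNTG, so a match in either window is common. No binding was measured in this series.

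**Figure D1:**
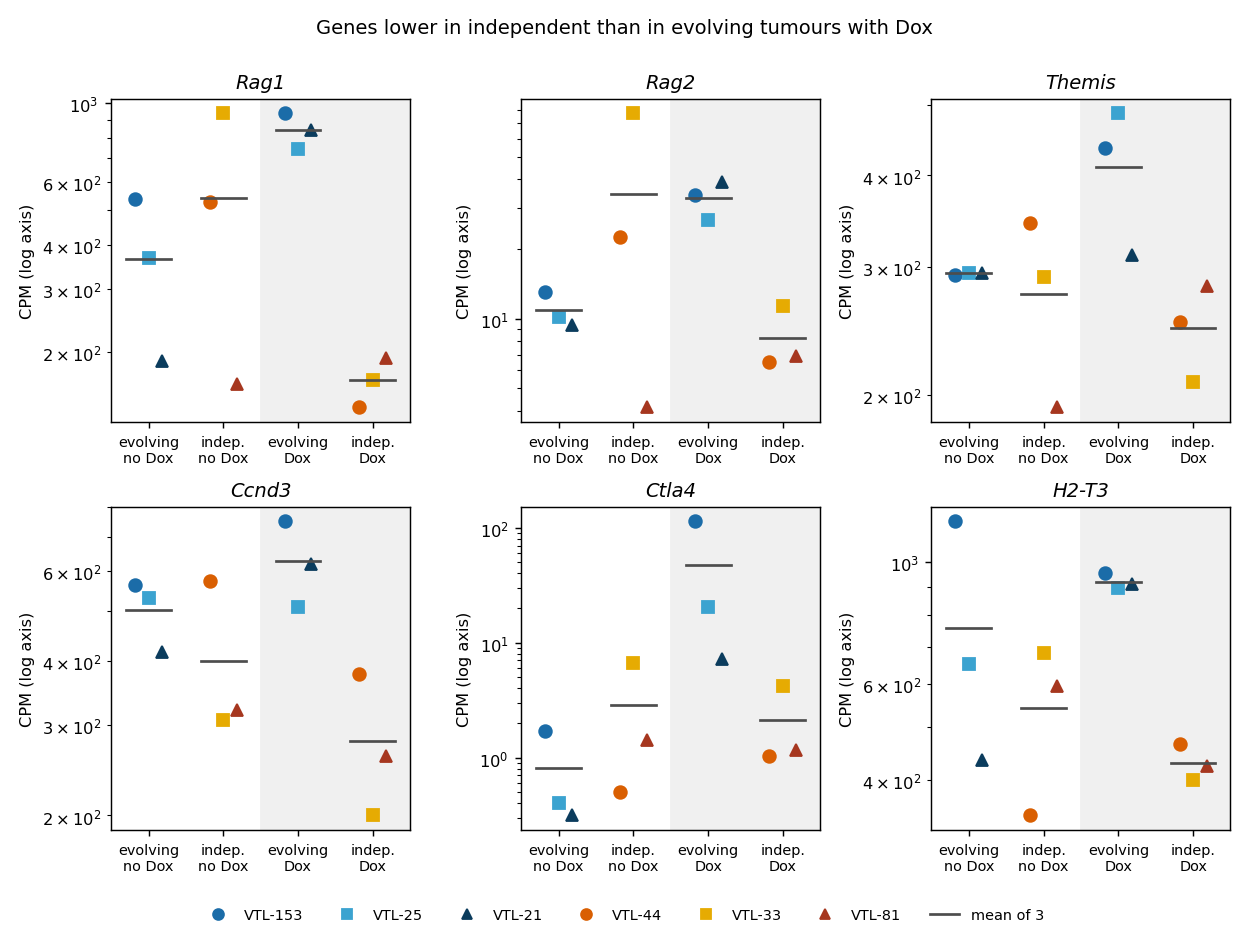
CPM on a log axis for 6 genes in each tumour, without Dox (white) and with Dox (grey), evolving in blue and independent in orange to red, with bars at the mean of 3. With Dox the 3 evolving tumours lie above the 3 independent tumours in every panel, for Rag1 at 744 to 937 against 140 to 193 CPM, while without Dox the classes overlap in all 6 panels.

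Other genes of the double-positive stage were also lower in the independent tumours. Of 17 tested markers of that stage, 15 had a negative difference, the median was -0.54 (-0.78 to -0.38 with 1 tumour left out, and -0.01 over all genes), and in 4 the independent tumours lay below all evolving ones, where the background is 4.86%. Rag1, Rag2 and Themis were among the 4. Of these, Rag1 and Rag2 passed in DESeq2, and none of the 17 passed in edgeR. Themis, a regulator of receptor signal strength during selection, stood at 436, 486 and 312 CPM against 252, 209 and 282 CPM, so that VTL-21 and VTL-81 nearly met. The coreceptors did not separate the classes. Cd4 was 359, 19.3 and 580 CPM in the evolving tumours and 565, 48.2 and 13.0 CPM in the independent tumours, so high and low tumours occurred in both classes. Cd8a ranged from 664 to 1162 CPM in the evolving and from 104 to 1382 CPM in the independent tumours. Dntt, the polymerase that adds bases at receptor joins, was 286 to 975 CPM against 98.5 to 1375 CPM.

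The end-joining enzymes that act after Rag showed little. Of 13 tested recombination genes 10 had a negative difference, with a median of -0.24 (-0.42 to -0.09 with 1 tumour left out), and 3 did not overlap: Rag1, Rag2 and Nhej1, the last at 4.36 to 4.91 CPM against 2.998 to 3.85 CPM. Among 22 tested genes of T cell receptor signalling, 18 had a negative difference (median -0.17, or -0.05 without VTL-25), and Themis and Txk were among those lower in all 3 independent tumours. Txk, a Tec-family kinase, stood at 72.3, 87.6 and 50.3 CPM in the evolving tumours and 48.3, 18.1 and 22.2 CPM in the independent ones, where VTL-44 came close to VTL-21. The receptor's early response genes were mixed: Dusp2 (27.5 to 50.7 CPM against 56.3 to 102) and Tnfaip3 (85.0 to 118 CPM against 120 to 157) were higher in all independent tumours, and Nr4a3 (2.01 to 2.92 CPM against 0.926 to 2.00) was lower. Tcf7, which specifies the T lineage, stood at 2632, 2842 and 2431 CPM against 1318, 2219 and 2152 CPM, lowest in VTL-44. It was 1 of 2 T lineage transcription factors lower in every independent tumour. That list was balanced, with 9 of 17 tested genes negative and a median of -0.02 (-0.13 to 0.10 with 1 tumour left out).

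Among costimulatory and inhibitory receptors, Ctla4 and Cd200 were lower in every independent tumour, 2 of 17 tested with a list median of -0.20 (0.14 without VTL-25). Ctla4, which restrains T cell activation, stood at 114, 20.3 and 7.17 CPM in the evolving tumours and at 1.02, 4.19 and 1.16 CPM in the independent tumours. Its evolving values spread widely, with VTL-21 near the independent VTL-33, and the log2 difference was -4.47 (SE 1.22, adjusted p 0.974 by edgeR, 0.000919 by DESeq2). Cd200, a surface ligand that dampens myeloid cells, was 8.60, 12.7 and 13.2 CPM against 3.36, 2.07 and 3.76 CPM. Icos, a costimulator, was 29.1, 54.5 and 5.26 CPM against 1.75, 9.79 and 4.70 CPM and overlapped through VTL-21 and VTL-33. A cytokine gene named after its values were seen, Il22, stood at 8.85, 52.7 and 33.05 CPM against 3.02, 0.397 and 0.166 CPM. Its near-identical copy Iltifb was 29.0, 86.8 and 71.4 CPM against 10.2, 1.10 and 1.22 CPM, and reads of the pair may have been split between them.

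The cell cycle list was balanced, with 10 of 20 tested genes on each side and a median of 0.02, but Ccnd3 and E2f2 were lower and Cdkn1c higher in every independent tumour. Ccnd3 (ENSMUSG00000034165), the D cyclin on which thymocyte expansion depends, stood at 750, 511 and 620 CPM in the evolving tumours and at 378, 200.2 and 261 CPM in the independent tumours. The log2 difference was -1.17 (SE 0.28, adjusted p 0.974 by edgeR, 0.0178 by DESeq2). E2f2, a transcription factor of S-phase entry, was 171 to 242 CPM against 121 to 152 CPM. Cdkn1c, which encodes the inhibitor p57, was 0.202 to 1.38 CPM against 2.48 to 9.74 CPM, low throughout. The other D cyclins overlapped: Ccnd1 stood at 0.405, 82.8 and 12.4 CPM in the evolving and at 23.7, 82.8 and 157 CPM in the independent tumours, and Ccnd2 at 0.809 to 17.9 against 4.63 to 20.2 CPM. Of 20 genes of replication and mitosis only Rrm2, a ribonucleotide reductase subunit, did not overlap, at 414 to 580 CPM against 356 to 394 CPM, and the list median was 0.06.

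By smallest p, the other 3 genes lower in the independent tumours were H2-T3, Bcas1 and Tnik, none past the edgeR threshold. H2-T3 (chromosome 17, 36185572 to 36190287), a nonclassical class I gene that encodes the thymus leukaemia antigen, stood at 955, 898 and 912 CPM in the evolving tumours and at 465, 400 and 424 CPM in the independent tumours. Both classes were tight, and the log2 difference was -1.11 (SE 0.15, edgeR adjusted p 0.85, DESeq2 adjusted p 9.4e-10), though its reads may be shared with near-identical class I copies such as H2-T10, at 368 to 481 against 132 to 244 CPM. Bcas1 (chromosome 2, 170346991 to 170427845), a gene best known from myelin-forming cells, was 37.0, 35.1 and 6.19 CPM against 0.585, 0.441 and 0.221 CPM. It was near absent in all independent tumours and lower in VTL-21 than in the other evolving ones, with a log2 difference of -5.95 (SE 0.86, edgeR adjusted p 0.85). Without VTL-21 its adjusted p was 0.0456, past the threshold. Tnik (chromosome 3, 28263214 to 28675858), a kinase of Wnt and cytoskeletal signalling, stood at 111, 115 and 111 CPM against 63.0, 54.7 and 55.7 CPM, a log2 difference of -0.97 (SE 0.15, edgeR adjusted p 0.939).

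The 5 genes with the smallest p among those higher in the independent tumours, none past the edgeR threshold, were Zcchc11, Adgrg5, Maml3, C1qtnf6 and Ppp1r9b. Zcchc11 (ENSMUSG00000034610, chromosome 4, 108459426 to 108559421), named Tut4 by RefSeq, encodes an enzyme that adds uridines to RNA ends, including let-7 precursors. It stood at 15.3, 27.6 and 32.7 CPM in the evolving tumours and at 103, 112 and 109 CPM in the independent tumours. The independent values lay close together and the evolving ones spread more, and the log2 difference was 2.10 (SE 0.29, edgeR adjusted p 0.85, DESeq2 adjusted p 2.6e-07). Without Dox it was 36.6, 39.8 and 55.4 CPM against 80.7, 125 and 88.2 CPM, again without overlap. Maml3, a coactivator of Notch transcription complexes, was 13.9, 15.1 and 15.6 CPM with Dox against 37.9, 49.996 and 29.1 CPM, a log2 difference of 1.39 (SE 0.26).

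Adgrg5, an adhesion G protein-coupled receptor, stood at 3.64, 6.34 and 6.68 CPM in the evolving tumours and at 53.8, 19.7 and 51.8 CPM in the independent tumours, a log2 difference of 2.90 (SE 0.47, edgeR adjusted p 0.939). VTL-33, the independent tumour with fewest myeloid marker counts, was the lowest of its class. C1qtnf6, a secreted protein of the C1q and TNF-related family, was 1.37, 2.23 and 0.688 CPM against 10.03, 114 and 65.8 CPM. It was highest in VTL-33, and the log2 difference was 5.45. Ppp1r9b, the protein phosphatase scaffold spinophilin, stood at 159, 140 and 247 CPM against 492, 394 and 519 CPM, a log2 difference of 1.36 (SE 0.26, edgeR adjusted p 0.974).

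**Figure D2:**
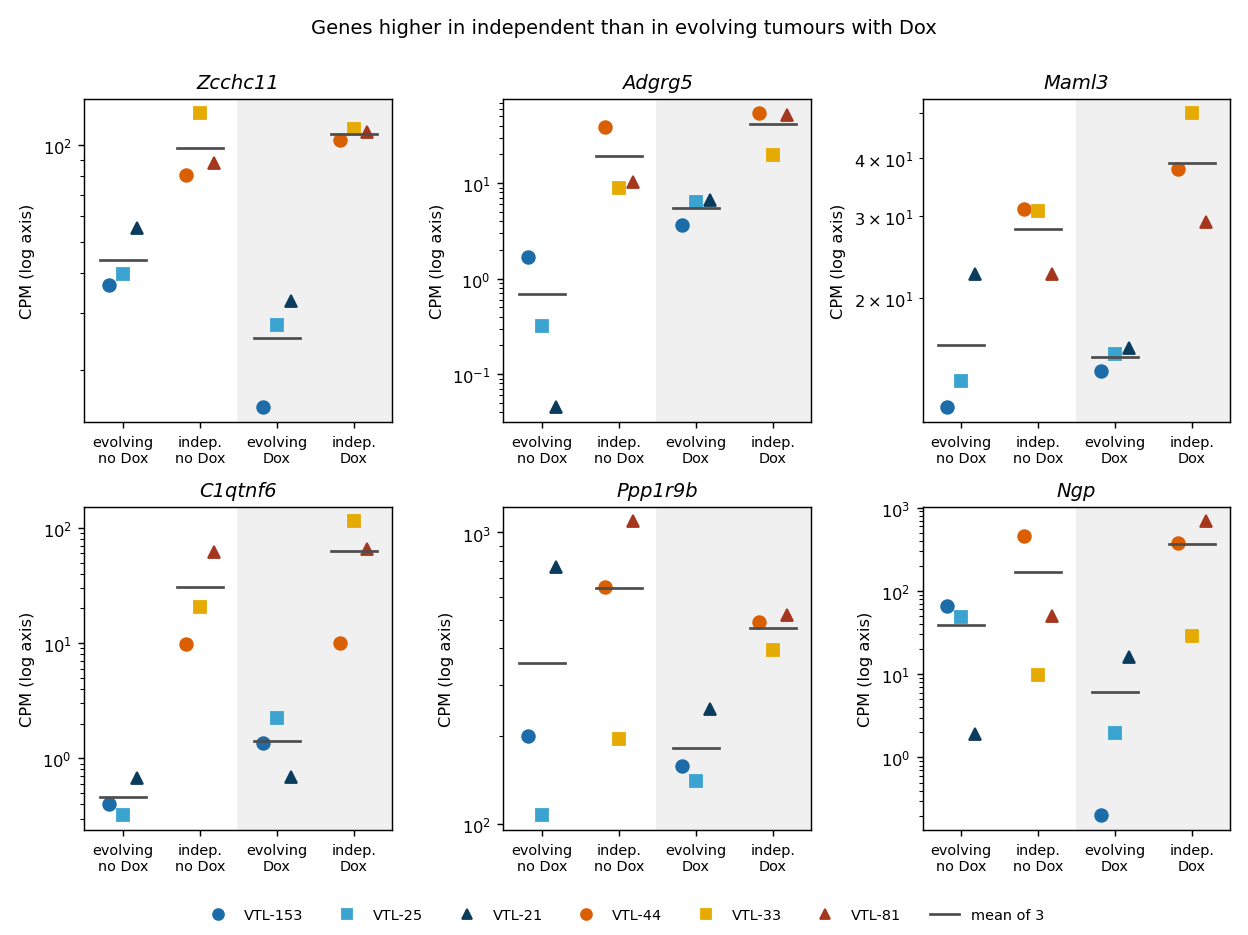
CPM on a log axis for the 5 genes named by smallest p and for Ngp, a neutrophil granule gene, in each tumour without Dox (white) and with Dox (grey), with bars at the mean of 3. Zcchc11 sits at 103 to 112 CPM in the 3 independent tumours with Dox against 15.3 to 32.7 CPM in the evolving ones, while Ngp spreads from 28.8 to 683 CPM within the independent class.

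Several other genes called higher by DESeq2 were picked out after their values were seen. Ptk7, a receptor pseudokinase of Wnt signalling, stood at 0.405, 1.64 and 6.63 CPM in the evolving tumours and at 86.7, 95.3 and 50.8 CPM in the independent ones (DESeq2 adjusted p 1.2e-06, edgeR 0.974). Without Dox it was 6.35 to 15.7 against 54.4 to 79.9 CPM. Ccdc50, an effector of growth factor receptor signalling, was 0.354, 0.545 and 8.64 CPM against 85.6, 119 and 96.9 CPM. It was one of 4 genes that passed in edgeR once VTL-21 was left out, with Bcas1, Tsc22d1 and Fam160a2. Tsc22d1 shows the part of VTL-21: it stood at 0.202 and 0.248 CPM in VTL-153 and VTL-25, 37.9 CPM in VTL-21, and 23.5 to 34.1 CPM in the independent tumours. Of the 94 genes called by DESeq2, 80 did not overlap between the classes, against 9.64% of all tested genes in either direction. Calls and overlap come from the same 6 libraries, so this count is no separate support for the calls.

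Myeloid markers had higher fitted levels in the independent class, though none passed in edgeR and their sums nearly met, at 290.2 CPM in VTL-21 and 291.4 CPM in VTL-33. All 21 tested had a positive difference, with a median of 2.31 against -0.01 over all genes, and 5 did not overlap: Camp, Ltf, Ngp, S100a9 and Elane, all neutrophil granule or inflammatory genes. Ngp stood at 0.202, 1.98 and 16.2 CPM in the evolving tumours and at 379, 28.8 and 683 CPM in the independent tumours. Its difference was 5.88 (SE 1.77, edgeR adjusted p 0.974, DESeq2 adjusted p 0.0454). Of DESeq2's 94 calls, 3 were members of this list. Csf1r, a macrophage receptor, overlapped, at 1.21, 0.892 and 35.4 CPM against 7.94, 40.6 and 73.4 CPM. The median was 6.16 without VTL-21 and 1.52 without VTL-81. Whether these transcripts bear on the other genes higher in the independent class was not tested. In the fit without VTL-44 and VTL-81, which leaves VTL-33 as the lone independent library, the differences of the 5 genes above were 2.15 (Zcchc11), 1.82 (Adgrg5), 1.75 (Maml3), 6.31 (C1qtnf6) and 1.11 (Ppp1r9b), and that of Ngp was 2.24.

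B cell markers went the other way, most strongly in VTL-21. Their sums were 1317, 764 and 8133 CPM in the evolving tumours and 136, 591 and 749 CPM in the independent tumours, so VTL-25 and VTL-81 nearly met. Of 9 tested markers 8 had a negative difference, with a median of -2.57 (-1.21 without VTL-21), and only Mzb1, which serves immunoglobulin assembly, did not overlap, at 0.556, 0.694 and 22.5 CPM against 0.146, 0.485 and 0.166 CPM. Ighm was 188, 654 and 6275 CPM in the evolving tumours and 20.9, 459 and 725 CPM in the independent tumours. It thus made up most of the sum in VTL-21 but a small part of that in VTL-153. Igkc was 1627 CPM in VTL-21 and at most 25.5 CPM elsewhere, and Igha was 15.5, 1.14 and 137 CPM in the evolving tumours and at 0 counts in the 3 independent ones. The defining B cell genes Cd79a, Ms4a1 and Pax5 were not analysed here. Of the 4 tested stromal and endothelial markers 3 had a positive difference, with a median of 2.51. Col1a1 overlapped and Pecam1, an endothelial adhesion molecule also made by blood cells, was level at 125 to 163 against 141 to 152 CPM. The other two did not overlap: Pdgfrb, the platelet-derived growth factor receptor, stood at 1.67, 106 and 68.5 CPM against 182, 636 and 584 CPM, and Col1a2 at 16.1, 1.04 and 0.196 CPM against 21.6, 105 and 167 CPM.

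Transcripts of the mitochondrial genome were higher in 2 of the independent tumours. They held 2.08%, 1.95% and 3.07% of counts in the evolving tumours and 2.31%, 6.01% and 5.73% in the independent tumours. All 9 tested genes had a positive difference, with a median of 0.99. Only mt-Nd1, a subunit of complex I, did not overlap, at 2709 to 3386 CPM against 3585 to 9011 CPM, with VTL-44 just above VTL-21. Without Dox the share was 4.92% in VTL-44 and 1.62% in VTL-81, so it was not a fixed property of a tumour.

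Lmo2 itself was low in both classes with Dox. Lmo2 (ENSMUSG00000032698, chromosome 2, 103957986 to 103981878) stood at 0.405, 0.198 and 3.24 CPM in the evolving tumours and at 4.09, 1.32 and 8.46 CPM in the independent tumours. The classes overlapped, and the log2 difference was 1.83 (SE 1.19, edgeR adjusted p 0.974). Without Dox it was 708, 515 and 303 CPM in the evolving tumours and 9.28, 600 and 27.2 CPM in the independent ones, where VTL-33 lay within the evolving range. Of 14 tested genes of the Lmo2 complex and its progenitor programme, 12 had a positive difference with Dox, with a median of 1.54 (3.35 without VTL-21), and 3 did not overlap. Of 13 tested markers of immature thymocytes 9 had a positive difference, with a median of 1.33 (0.74 without VTL-25, 3.19 without VTL-21). Their summed levels did not follow the median. The sums were 1165, 946 and 1542 CPM in the evolving tumours and 1339, 638 and 712 CPM in the independent tumours. Without Dox the median was -1.31 for the immature markers and -1.26 for the Lmo2 list, opposite in sign to those with Dox.

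The 3 genes of the Lmo2 list without overlap were Cpa3, Nfix and Nfe2, all at low levels with Dox. Cpa3, a protease of mast cells and early progenitors, stood at 0, 0.198 and 0.442 CPM in the evolving tumours and at 0.877, 4.94 and 5.86 CPM in the independent tumours, and the evolving tumours had been at 80.4 to 250.3 CPM without Dox. Nfe2, an erythroid and megakaryocytic factor, was 0.253, 0.248 and 2.85 CPM against 4.87, 3.35 and 11.4 CPM, and without Dox 4.55, 30.9 and 27.6 CPM against 8.54, 3.65 and 1.81 CPM. Lyl1, a partner of Lmo2, was 0.86, 0.644 and 5.45 CPM with Dox against 4.53, 3.04 and 13.6 CPM and overlapped, and without Dox it was 52.0 to 105 CPM against 2.41 to 10.6 CPM. Tal1 was at most 5.02 CPM in all 6 libraries with Dox. For Lmo2, Lyl1 and Nfe2, VTL-81 was highest and VTL-153 and VTL-25 were lowest, as for the summed myeloid markers, and the part of myeloid cells in these values was not tested. Without VTL-44 and VTL-81 the difference was 0.05 for Lmo2, against 1.83 with them, and 1.58 for Nfe2, against 2.54. With 1 tumour left out, that of Lmo2 was 1.09 (without VTL-81) to 3.88 (without VTL-21).

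The Ikaros family did not separate the classes. Ikzf1 (ENSMUSG00000018654, chromosome 11, 11685003 to 11772926) stood at 833, 2403 and 1023 CPM in the evolving tumours and at 1018, 2027 and 1262 CPM in the independent tumours. One tumour of each class was high and the others similar, and the log2 difference was 0.01 (SE 0.46, edgeR adjusted p 0.999), or -0.33 to 0.62 with 1 tumour left out. A gene count does not show which isoform or mutant a tumour makes. Ikzf2 (Helios) was 84.9 to 242 against 51.3 to 282 CPM, Ikzf3 (Aiolos) 404 to 618 against 257 to 833 CPM, Ikzf4 (Eos) 1.42 to 3.86 against 0.39 to 6.25 CPM and Ikzf5 27.1 to 41.5 against 34.4 to 48.3 CPM. VTL-44 was the lowest of the 6 for Ikzf2, Ikzf3 and Ikzf4. For Ikzf3 the evolving tumours without Dox were 50.1 to 191 CPM, below their levels with Dox, and the independent tumours were 289 to 697 CPM. Of 13 tested genes of NuRD, the remodelling complex that Ikaros recruits, Chd4 was higher in the independent tumours (1069 to 1324 CPM against 911 to 1068) and Hdac2 lower (162 to 181 CPM against 183 to 209), both by narrow gaps and with a list median of -0.10.

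Known T-ALL tumour suppressors mostly overlapped between the classes. Of 22 tested, 17 had a negative difference, with a median of -0.16 (0.03 without VTL-44), and only Kdm6a and Usp7 did not overlap. Cdkn2a, the locus of p16 and p19Arf, stood at 4.50, 279 and 110 CPM in the evolving tumours and at 20.2, 2.87 and 4.26 CPM in the independent tumours. VTL-153 lay among the independent tumours, so the classes overlapped, and the log2 difference was -3.84 (SE 1.46, edgeR adjusted p 0.974). Without Dox VTL-153 had been at 190 CPM, beside 182 in VTL-25 and 117 in VTL-21, while the independent tumours were at 19.0, 3.21 and 4.53 CPM. Kdm6a, an X-linked histone demethylase that escapes X inactivation, stood at 173, 155 and 144 CPM against 143, 65.6 and 74.1 CPM. Its low values fell in VTL-33 and VTL-81, the 2 tumours with low Xist, and in VTL-44, with high Xist, it was level with VTL-21. Usp7, a deubiquitinase, was 533 to 622 against 454 to 516 CPM, and Trp53, Phf6 and Fbxw7 overlapped.

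Among T-ALL transcription factor oncogenes, 6 of 20 could be tested and none separated the classes, with a median of 0.77 (0.31 without VTL-81, 3.10 without VTL-21). Myc was 144, 201 and 168 CPM in the evolving tumours and 30.5, 290 and 219 CPM in the independent tumours, with VTL-44 alone low. Myb was 869, 775 and 540 CPM against 553, 454 and 539 CPM, overlapping only through VTL-21 and VTL-44. Of 20 genes of MYC and ribosome biogenesis 17 had a negative difference, with a median of -0.20, and none was without overlap. The median was -0.46 without VTL-33 and -0.12 without VTL-81.

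Of the 12 tested BCL2 family genes, Bcl2l2, Bad and Bak1 were higher in every independent tumour. Bcl2l2, the survival factor Bcl-w, stood at 0.0506, 0.0991 and 0.786 CPM in the evolving tumours and at 0.926, 11.1 and 30.7 CPM in the independent tumours (log2 difference 5.47, SE 1.58, edgeR adjusted p 0.974, DESeq2 adjusted p 0.00441). VTL-44 lay just above VTL-21, and VTL-81 was highest with and without Dox. Bad and Bak1, both promoters of apoptosis, differed less, Bad at 12.3 to 16.8 against 19.2 to 21.2 CPM and Bak1 at 99.05 to 102 against 111 to 121 CPM. A few members of other lists also did not overlap. Atf5 of the stress response was higher (11.1 to 21.9 against 23.9 to 83.2 CPM) while Ddit3 of the same list was lower (13.9 to 14.2 against 10.1 to 13.2 CPM). Akt2 (76.9 to 98.7 against 98.8 to 124 CPM) and the phosphatase Phlpp1 (24.8 to 45.8 against 47.1 to 52.0 CPM), which opposes it, were both higher in the independent tumours, as was Gpi1 of glycolysis (356 to 446 against 481 to 558 CPM). At low levels, the erythroid factor Gata1 (0.455 to 2.60 against 3.26 to 4.09 CPM) and the leukotriene receptor Ltb4r1 (0 to 1.23 against 1.234 to 10.1 CPM) were higher, and the class II gene H2-Ob (2.98 to 9.72 against 0.974 to 2.65 CPM) and the perforin gene Prf1 (5.06 to 20.02 against 1.90 to 3.26 CPM) were lower. No tested member separated the classes in the lists of E proteins, mature T cell markers, T cell receptor identity, JAK-STAT, Notch, p53, cholesterol, interferon response, class I presentation or dendritic cells. Across all 38 lists, no member passed the edgeR threshold.

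**Figure D3:**
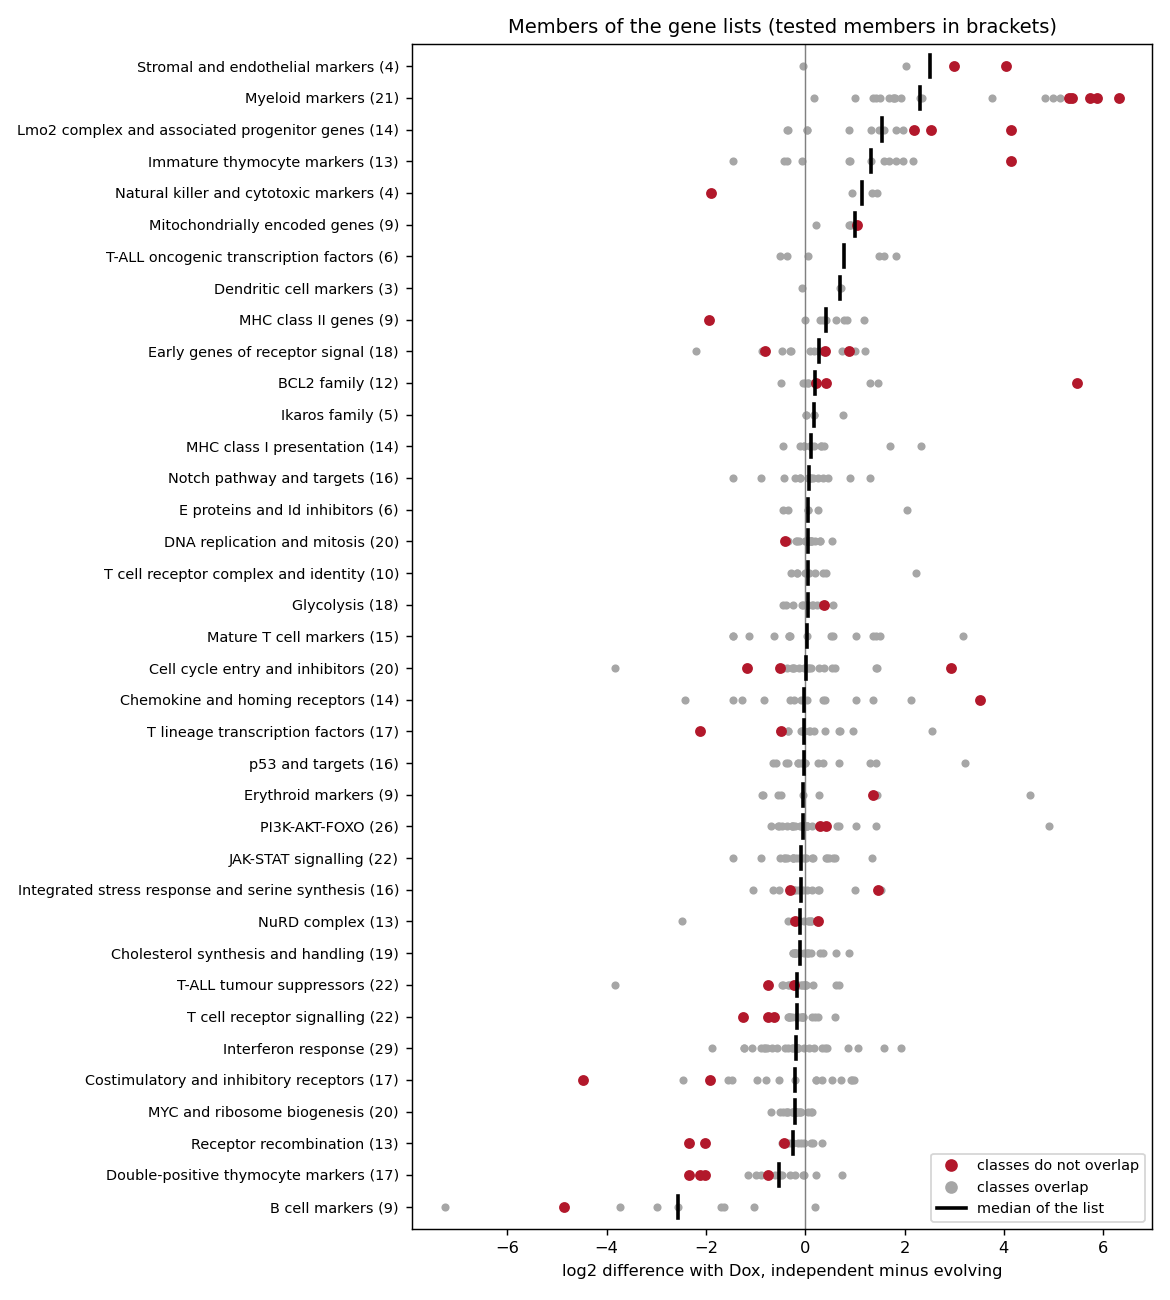
Log2 difference with Dox, independent minus evolving, of each tested member (points) of the lists with at least 3 tested members, with the median as a black bar and members whose classes did not overlap in red. Myeloid markers have a median of 2.31, B cell markers of -2.57 and double-positive markers of -0.54, and most other medians lie near 0.

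The genes that did separate these tumours without Dox were then followed into the libraries with Dox. They were chosen by the test without Dox, so that their values without Dox are the larger by selection, and the change between the conditions was not tested. Of the 32 genes, 22 were lower and 10 higher in the independent tumours. With Dox 24 could be tested and 8 did not pass the filter on low counts. For the 14 tested genes of the lower group the median difference was -2.57 without and -0.47 with Dox, and for the 10 of the higher group 1.97 without and 0.27 with Dox. Sbf2, a phosphatase-like regulator of Rab proteins, shows the pattern: without Dox it stood at 2.90, 2.16 and 6.16 CPM in the evolving tumours and at 115, 146 and 147 CPM in the independent tumours. With Dox it stood at 148, 92.6 and 70.6 CPM against 122, 153.4 and 99.6 CPM, and the classes overlapped.

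The forkhead gene Foxb1 stood at 1.05, 0.962 and 0.629 CPM without and 22.1, 39.9 and 10.4 CPM with Dox in the evolving class, beside 14.7 to 28.6 CPM in the independent tumours with Dox. Malt1, the paracaspase of receptor signalling to NF-κB, was 17.6, 20.2 and 16.4 CPM in them without Dox and 49.8, 49.6 and 37.2 CPM with Dox, beside 42.8 to 65.0 CPM. In the other direction, Npc1, which exports cholesterol from lysosomes, was 152, 195 and 174 CPM without Dox and 37.7, 32.3 and 52.3 CPM with Dox, beside 38.1 to 65.2 CPM. Armcx4 and Mdga1, at 53.7 to 64.9 and 21.6 to 140 CPM in untreated evolving tumours, were at most 0.446 and 0.297 CPM in all 6 libraries with Dox. With Dox the classes overlapped in each of these 5 genes.

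Of the 32 genes, 5 were still without overlap in the same direction with Dox: Tnik, Dgke, Dgkeos, Arhgef3 and Zbed3. Over all genes, 314 of the 2859 whose classes did not overlap without Dox (11.0%) were without overlap in the same direction with Dox. Dgke, a diacylglycerol kinase, stood at 137, 114 and 133 CPM in the evolving tumours with Dox and at 82.8, 46.1 and 65.5 CPM in the independent tumours, after 116 to 133 against 47.5 to 59.9 CPM without Dox. Dgkeos is its antisense neighbour, and since the strand setting of the counting is not given in the sources used here, reads of the pair may not be told apart. Zbed3 was 0.658, 6.34 and 11.98 CPM against 47.5, 29.9 and 18.7 CPM with Dox (log2 difference 2.34, SE 0.94, edgeR adjusted p 0.974) and had a difference of 1.96 without Dox. Arhgef3, a guanine nucleotide exchange factor, was 121, 161 and 94.1 CPM against 220.3, 180 and 172 CPM.

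**Figure D4:**
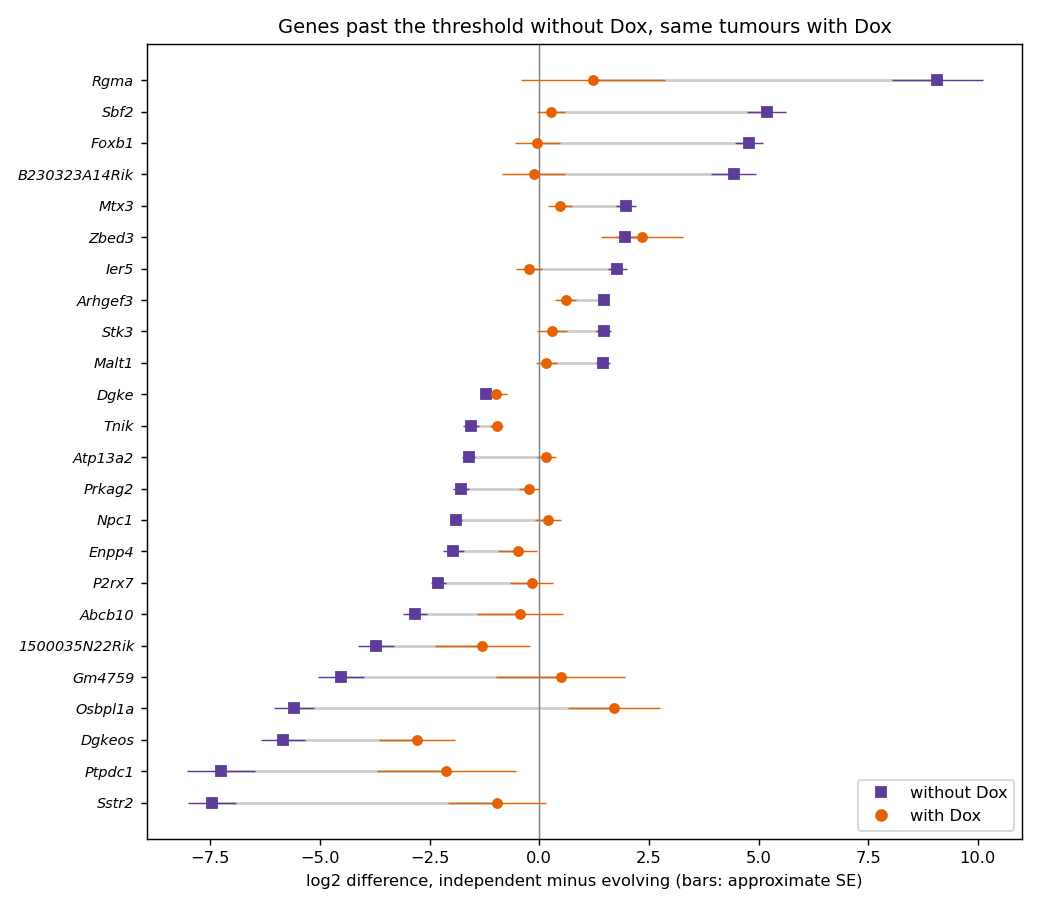
Log2 difference, independent minus evolving, of the 24 genes past the threshold without Dox that could also be tested with Dox, without Dox (squares) and with Dox (circles), with bars for the approximate SE. Most circles lie near 0, for example Sbf2 at 0.26 after 5.18, while Zbed3, Dgke and Tnik lie near their squares.

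Levels by chromosome set VTL-25 with Dox apart on every chromosome but 15. For each library the median over genes of log2 CPM (with 0.5 added) minus the mean of the 6 libraries was taken on each chromosome, over 12036 tested genes of chromosomes 1 to 19 and X, with 278 to 1012 genes each. In the 5 libraries other than VTL-25 these medians lay between -0.11 and 0.12, chromosome 15 apart. In VTL-25 with Dox they lay between 0.15 and 0.43 on 11 chromosomes (1, 4, 5, 9, 10, 11, 12, 14, 16, 17 and X) and between -0.29 and -0.10 on the other 9. On the first 11, 64.2% to 82.5% of genes were above the mean of the 6 libraries, and on the other 9, 16.2% to 36.8%. Against its own library without Dox, VTL-25 with Dox moved by 0.15 to 0.39 on those 11 chromosomes. On the other 9, chromosome 15 left out, it moved by -0.36 to -0.17. This library is also the one that changed its receptor segment. The other evolving tumours moved by -0.20 to 0.03 (VTL-153) and -0.04 to 0.06 (VTL-21) against their own libraries, chromosome 15 left out. On chromosome 15 VTL-153 stood 0.50 higher with than without Dox, the largest shift of any tumour on any chromosome, and VTL-25 stood 0.26 higher.

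Chromosome 15, which carries Myc, set VTL-81 apart. Its median was -0.37 in VTL-81, -0.14 in VTL-25 and 0.10, 0.15, 0.12 and 0.18 in VTL-153, VTL-21, VTL-44 and VTL-33. The median class difference over genes lay between -0.17 and 0.15 on every chromosome, against a span of -0.29 to 0.43 in VTL-25 alone. The sign of the class difference was opposite to that of VTL-25 on every chromosome but 15. VTL-25 is among the evolving libraries subtracted in that difference, so an opposite sign is partly built in. On X the class difference and the VTL-25 median were -0.17 and 0.43, and on chromosome 7 they were 0.15 and -0.28. The differences of single genes were not adjusted for this. Rag1 and Rag2 lie on chromosome 2, where VTL-25 stood at -0.24. DNA was not measured, and no statement on copy number is made.

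**Figure D5:**
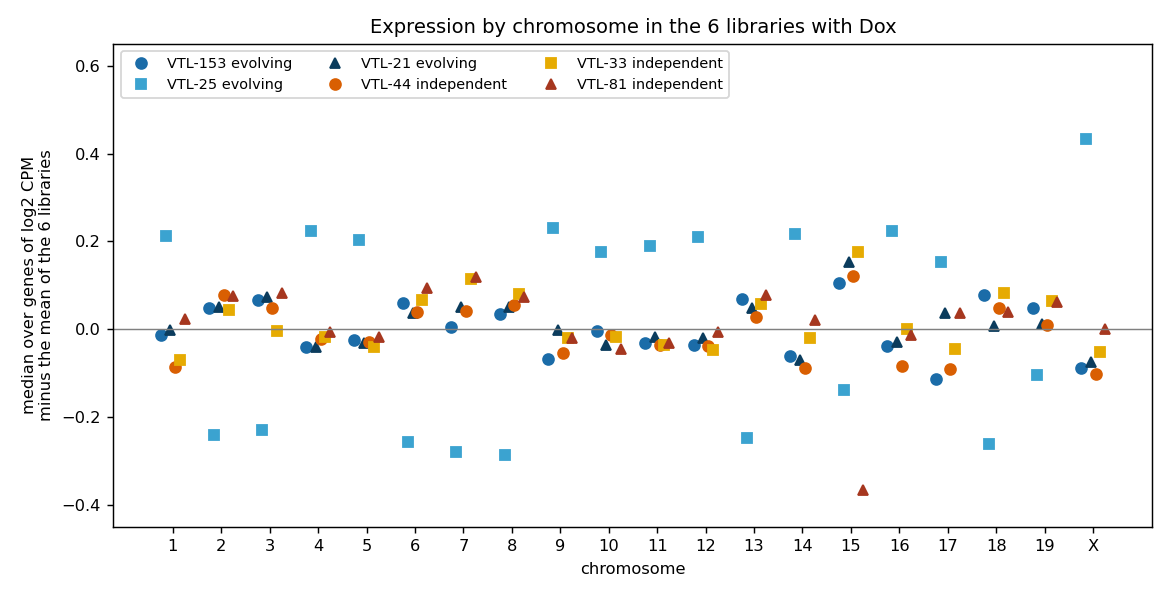
Median over genes of log2 CPM minus the mean of the 6 libraries, by chromosome, in the 3 evolving (blue) and 3 independent (orange to red) tumours with Dox. VTL-25 lies at 0.15 to 0.43 or at -0.29 to -0.10, outside the range of the other 5 libraries on every chromosome but 15, and VTL-81 lies at -0.37 on chromosome 15.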

How the data were processed

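Total RNA of sorted tumour cells was sequenced. STAR 2.5.2b, featureCounts and the mm10 build are named in the submitters' processing notes. The deposited values used were raw counts per gene from the authors, 1 column per library, not normalised. The table's other 42 per-sample columns were not used. All 12421 listed genes had at least 1 CPM in at least 2 libraries. Symbols and identifiers are those of the table, and positions come from GENCODE M21, which held 12379 of the identifiers.

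The 6 libraries with Dox were fitted with edgeR 4.0.16 in R 4.3.3 (TMM factors, default filter at a minimum count of 10, robust quasi-likelihood, Benjamini-Hochberg over all 12093 genes tested, threshold 0.05), with no covariate. The 6 libraries of the same tumours without Dox were fitted alone. The SE is the size of the log2 difference divided by the square root of F, and is inexact at low counts. DESeq2 1.42.0, limma 3.58.1 voom, RLE factors, other filters, 1 fit of all 14 libraries and leaving out each tumour were the alternatives. DESeq2 gave 98 genes no adjusted p. The code was tested on simulated data. Named genes were Lmo2, Ikzf1, the 5 genes of smallest p in each direction without overlap between classes and with a mean log2 CPM of 2 or more (no sex-linked or predicted genes, pseudogenes or receptor segments), up to 4 members of each list without overlap, and members of the Ikaros, Lmo2, tumour suppressor and transcription factor lists. Genes outside this rule were named after their values were seen. The comparison, the 38 lists and the rule were chosen with earlier results of these data known. The precision of levels is limited by 3 tumours a class more than by depth. Some members of the lists are counted but not reported here by name.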

Additional observations from a re-analysis of the deposited data

Results flagged for a closer look

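Among the genes named by rule, 1 moved with Dox in opposite directions in every tumour of the 2 classes. Nfix, a nuclear factor of progenitors, stood at 8.15, 20.9 and 34.6 CPM in the evolving tumours (order VTL-153, VTL-25, VTL-21) without Dox and at 0.556, 0.743 and 1.57 CPM with Dox. In the independent tumours (VTL-44, VTL-33, VTL-81) it stood at 3.62, 1.43 and 4.44 CPM without and 3.65, 2.38 and 7.30 CPM with Dox. The mean log2 change with Dox, evolving minus independent, was -4.15 (0.5 CPM added). In VTL-44 the step was far smaller than the spread between tumours, and the difference between the classes was not tested.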

How the results depend on the processing

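The count of 0 genes with Dox was 94 with DESeq2, 1 with limma voom and 4 without VTL-21. Leaving out each tumour gave 0 to 4 genes with Dox and 0 (without VTL-25) to 269 (without VTL-44) without Dox. The count of 32 genes without Dox was 1145 with DESeq2, 8 with limma voom, 85 at a minimum count of 50 and 82 in 1 fit of all 14 libraries, and 10 without VTL-33 and 3 without VTL-153. RLE factors, no filter, a fit that was not robust and leaving out receptor segments gave 0 with Dox and 31 or 32 without. A fit with neither VTL-44 nor VTL-81, chosen after seeing the data, gave 0 with Dox, with VTL-33 assumed to vary like the others.

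The 54 named genes kept their direction under every alternative except Ikzf1. Its difference ranged from -0.33 (without VTL-33) to 0.62 (without VTL-25) and was -0.24 without VTL-153 and -0.18 without VTL-21. All but Lmo2 and Ikzf1 had been chosen because their classes did not overlap in these 6 libraries. Their direction was thus largely fixed by that choice, and keeping it is no separate support. Of the 37 list medians followed, 21 changed sign when 1 tumour was left out, among them MHC class II, erythroid and Ikaros family genes. No paired analysis was possible because the independent and evolving classes share no tumour. A class of 3 tumours limits what can be called: the cause of the gap between edgeR and DESeq2 was not tested.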
